A study of Mus musculus with 4 samples.

Results

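Transcripts of 9 genes that mark B and T lymphocytes (Cd79a, Cd79b, Cd3e, Cd3g, Cd4, Cd8a, Ptprc, Cd52 and Ltb) were followed in mouse skeletal muscle. The array measured all 9, among 8251 named genes, through 11 of the 12422 probe sets tested: 3 probe sets for Ptprc and 1 for each other gene. Each of the 11 was annotated to a single gene. The genes were chosen by name, at a time when the levels of lymphocyte transcripts on these same arrays were already known, both their spread between the pools and their differences between genotypes. Their levels and differences are therefore given as a description, and nothing is supported with a test on them.

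The tissue was the combined gastrocnemius and soleus muscles of untreated male mice aged 6.5 months on a mixed C57BL/6 and 129 background, fed chow. Mice without corticotropin-releasing factor receptor 2 (Crhr2-/-, KO) were compared with Crhr2+/+ littermates (WT). Each genotype had 4 mice, whose RNA was pooled in pairs, and every pool went onto its own Affymetrix U74Av2 array, giving 4 arrays named here WT pool 1, WT pool 2, KO pool 1 and KO pool 2. The labels do not limit the receptor loss to a cell type, and a pool cannot show how its 2 mice differed. Values are given for pool 1 and then pool 2 of a genotype. Signal is a linear intensity in arbitrary units. Probes differ in how strongly they bind, so a brighter probe set does not show a more abundant transcript, and brightness serves here only to choose and describe probe sets.

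B cells carry an antigen receptor made of membrane immunoglobulin and the paired signalling chains Cd79a and Cd79b. T cells carry a receptor whose signal runs through the CD3 chains, with Cd4 or Cd8a as the coreceptor that divides helper from cytotoxic T cells. Ptprc (CD45) is the surface phosphatase of nucleated blood cells, and healthy muscle holds few lymphocytes in its vessels and connective tissue. In RNA of whole tissue, fewer cells of a type and less RNA per cell cannot be told apart.

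The 4 arrays had similar scales, with medians of 67.6 to 71.2, and 13 of 14 measured muscle fibre genes had a mean above the median level of the table. Crhr2 itself read 154 and 192 in the WT pools and 100.4 and 75.1 in the KO pools on its brighter probe set (log2 difference -0.88 ± 0.25, limma adjusted p = 0.803), and 18.8 and 45.3 in the WT pools and 36.7 and 22.7 in the KO pools on its dimmer one. Whether these probe sets lie inside the deleted stretch is not known here. Individual arrays stood apart in genes of other organs: all 10 measured exocrine pancreas genes were highest in KO pool 1, and 9 of 14 liver genes were highest in WT pool 2. The 3'/5' signal ratio of the control transcripts, which reflects RNA integrity and labelling, was 0.624 (WT pool 1), 0.686 (WT pool 2), 0.729 (KO pool 1) and 0.866 (KO pool 2) for actin. The same ratio for Gapdh lay between 0.889 and 1.04. The part of these differences in the lymphocyte values below was not tested.

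Both B-cell receptor chains varied more between the WT pools than between the genotypes. Cd79a read 190.0 in WT pool 1, 62.2 in WT pool 2, 169 in KO pool 1 and 277 in KO pool 2. WT pool 2 was the low array and KO pool 2 the high one, and the genotypes overlapped. The means were 126 ± 90.4 in WT and 223 ± 76.2 in KO (SD, n = 2 pools each), and the difference of KO minus WT was 0.89 ± 0.48 on the log2(intensity + 14) scale, which all log2 differences here use (± standard error from limma). Cd79b, its partner chain, read 192 and 87.3 in the WT pools and 131 and 189 in the KO pools. Here both KO pools lay within the range of the WT pools, and the log2 difference was 0.25 ± 0.37.

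The T-cell genes differed among themselves. Cd3e, a signalling chain of the T-cell receptor complex, read 54.6 and 26.0 in WT pools 1 and 2 and 52.6 and 87.1 in KO pools 1 and 2. WT pool 2 was again lowest and KO pool 2 highest, and the log2 difference was 0.65 ± 0.43. Cd3g, another chain of the same complex, read 117 and 33.5 in the WT pools and 57.3 and 62.8 in the KO pools. The WT pools lay on either side of both KO pools, so the large spread in WT (75.2 ± 59.0, SD, n = 2) stood beside a small one in KO (60.0 ± 3.89, SD, n = 2) and the log2 difference was -0.09 ± 0.51.

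The coreceptor genes varied little. Cd4 read 138 and 105 in the WT pools and 131 and 118 in the KO pools, with a log2 difference of 0.04 ± 0.24. Cd8a read 49.8 and 60.2 in the WT pools and 50.0 and 57.2 in the KO pools, with a log2 difference of -0.03 ± 0.33. For both genes the KO pools fell inside the WT range, and for Cd8a WT pool 2 was the highest array rather than the lowest. Detection calls were not used here, so it is not known whether these 2 probe sets read their transcript or unspecific signal in muscle.

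Genes shared by B and T cells included the members with the widest spread. Cd52, a small glycoprotein anchored on the surface of lymphocytes and some other leukocytes, read 376 in WT pool 1, 90.2 in WT pool 2, 211 in KO pool 1 and 421 in KO pool 2. In signal, WT pool 1 stood 4.17-fold above WT pool 2 and KO pool 2 stood 2.00-fold above KO pool 1, and the log2 difference between genotypes was 0.63 ± 0.62. Ltb, the lymphotoxin beta subunit that lymphocytes use to maintain lymphoid tissue, read 186 and 63.7 in the WT pools and 149 and 229 in the KO pools (log2 difference 0.67 ± 0.46). In both genes WT pool 2 was the lowest array and KO pool 2 the highest, the same order of extremes as for Cd79a and Cd3e.

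The 3 probe sets of Ptprc gave different values. Probe set 101298_g_at read 72.0 and 50.5 in the WT pools and 72.2 and 81.3 in the KO pools, so both KO pools lay above both WT pools, KO pool 1 by less than 1 unit. Probe set 101048_at read 83.7 and 12.5 in the WT pools and 43.2 and 34.2 in the KO pools, with the KO pools inside the WT range. Probe set 101297_at was dim in all pools, at 16.1 and 20.8 in the WT pools and 1.83 and 13 in the KO pools, so both KO pools lay below both WT pools. The log2 differences of the first 2 were 0.28 ± 0.32 and 0.05 ± 0.64, and both had WT pool 2 as the lowest array. The log2 difference of 101297_at, -0.65 ± 0.33, was -0.24 with a pseudocount of 56 and -1.62 with 1, and nothing here shows whether this probe set read above background, so it gives no direction for the gene.

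**Figure D1:**
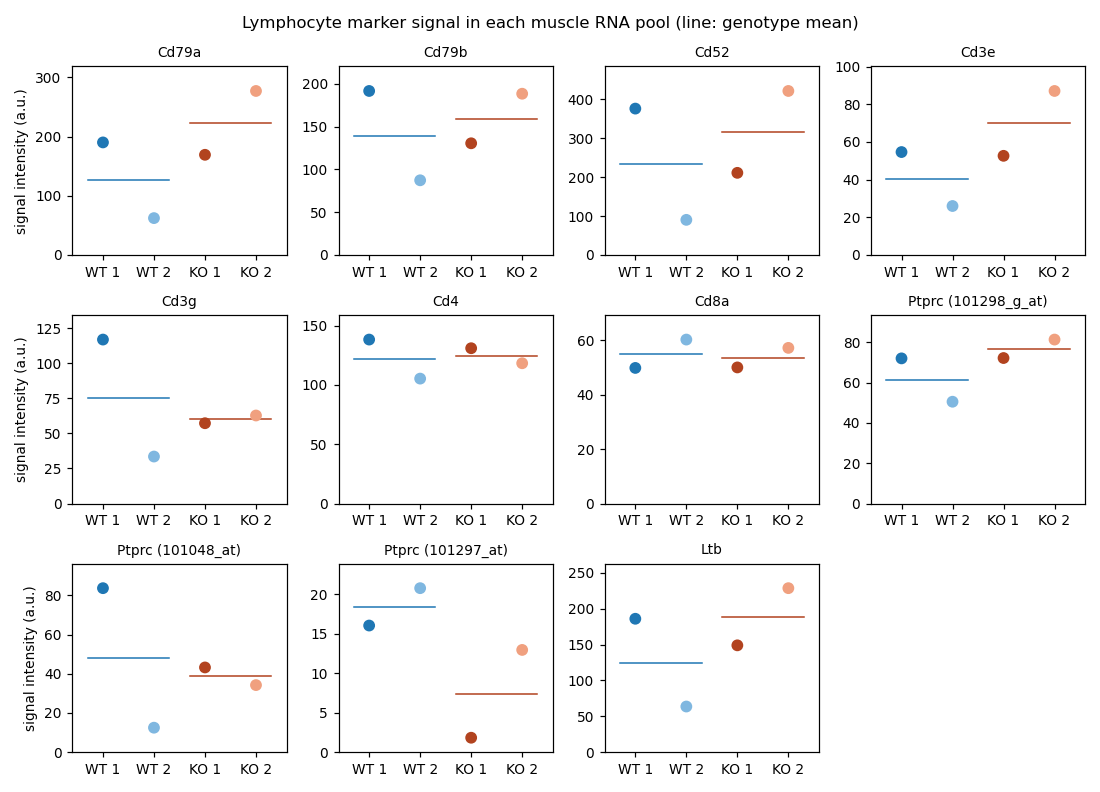
Signal intensity (arbitrary units, linear axis from 0) of each probe set of the 9 lymphocyte marker genes in WT pools 1 and 2 (blue) and KO pools 1 and 2 (red); each point is 1 array and each line a genotype mean. WT pool 2 was the lowest array for 9 of the 11 probe sets, the exceptions being Cd8a and the dimmest Ptprc probe set.

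Promoter windows are shown for 3 genes whose levels were lowest in WT pool 2 and highest in KO pool 2 (Cd79a, Cd3e, Ltb) and for Cd8a, which did not share that order. They are the 250 bases before the annotated start, from RefSeq (GRCm38.p6), 5′ to 3′ on the gene's strand, with matches to the motif GAGGAA, the core recognised by the leukocyte factor SPI1, on either strand (TTCCTC) in capitals. The windows lie at chr7:24897247-24897496 (+) for Cd79a, chr9:45009612-45009861 (-) for Cd3e, chr17:35194257-35194506 (+) for Ltb and chr6:71373177-71373426 (+) for Cd8a.
Cd79a: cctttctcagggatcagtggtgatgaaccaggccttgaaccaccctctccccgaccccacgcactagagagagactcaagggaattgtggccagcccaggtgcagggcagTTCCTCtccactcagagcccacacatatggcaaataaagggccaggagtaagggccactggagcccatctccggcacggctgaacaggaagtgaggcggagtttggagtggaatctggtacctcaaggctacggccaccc
Cd3e: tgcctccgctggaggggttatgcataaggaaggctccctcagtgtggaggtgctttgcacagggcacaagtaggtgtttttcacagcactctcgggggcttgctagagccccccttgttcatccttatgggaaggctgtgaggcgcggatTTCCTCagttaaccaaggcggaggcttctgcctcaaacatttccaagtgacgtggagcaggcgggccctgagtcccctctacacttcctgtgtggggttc
Ltb: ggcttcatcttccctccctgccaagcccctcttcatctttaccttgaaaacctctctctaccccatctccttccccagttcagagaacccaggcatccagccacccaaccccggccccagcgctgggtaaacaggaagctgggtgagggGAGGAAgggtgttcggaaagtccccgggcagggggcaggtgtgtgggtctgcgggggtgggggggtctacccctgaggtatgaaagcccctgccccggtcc
Cd8a: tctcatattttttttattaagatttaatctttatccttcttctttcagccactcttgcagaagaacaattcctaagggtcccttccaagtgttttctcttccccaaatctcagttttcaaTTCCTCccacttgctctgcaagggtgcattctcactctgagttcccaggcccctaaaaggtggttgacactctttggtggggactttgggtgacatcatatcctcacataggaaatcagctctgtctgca

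Each of these 4 windows held 1 match to that motif, so it did not separate Cd8a from the others. In all, 7 windows of 6 member genes were matched, for Cd79a, Cd3e, Cd3g, Cd8a, Ltb and Ptprc, and 5 of the 7 held GAGGAA or TTCCTC, against 23.3% of 32851 windows. The octamer of immunoglobulin promoters (ATGCAAAT or ATTTGCAT) was in 0 of 7 and in 1.6% of all. The site of the B-cell factor EBF, searched as TCCC, 2 bases of any kind and GGGA, was in 0 of 7 and in 0.779% of all. The TATA box (TATAAA or TTTATA) was in 1 of the 7, a Ptprc window, and in 12.4% of all. The motifs overlap in none of the member windows, and a match is a description of letters only.

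Between genotypes no member passed the threshold and the directions were mixed. Of 11 probe sets, 8 had a higher mean in KO and 3 a lower one, where 50.0% of all probe sets were higher. The median log2 difference was 0.25 for the members and 0.00 for all 12422. Both KO arrays lay above both WT arrays for 1 of the 11 (17.0% of all probe sets) and below them for 1 of the 11 (17.6% of all), both of these being Ptprc probe sets. None of the 11 was called at an adjusted p under 0.05 (limma), and 0.0% of all probe sets were called. At an unadjusted p under 0.05 (limma) there were 0 among the 11 member probe sets and 674 among all 12422.

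The direction of the genotype difference depended on which WT pool it was read against. Without WT pool 1, 9 of 11 members were higher in KO, with a median of 0.76. Without WT pool 2, only 4 of 11 were higher and the median was -0.14. Over all probe sets the same 2 settings gave medians of -0.0026 and 0.0029. Without KO pool 1 and without KO pool 2, 7 and 8 members were higher, with medians of 0.36 and 0.16. Cd79a, Cd3e and the first Ptprc probe set were higher in KO and the dimmest Ptprc probe set lower in each of these 4 settings, but the sizes moved. Cd79a (0.89 with all arrays) was 0.18 without WT pool 2 and 1.60 without WT pool 1, and Cd3e (0.65) was 0.26 and 1.04. Probe set 101298_g_at of Ptprc (0.28) was 0.076 without WT pool 2 and 0.49 without WT pool 1, and 101297_at (-0.65) was -0.26 without KO pool 1 and -1.03 without KO pool 2. The other 7 probe sets took both signs across them.

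**Figure D2:**
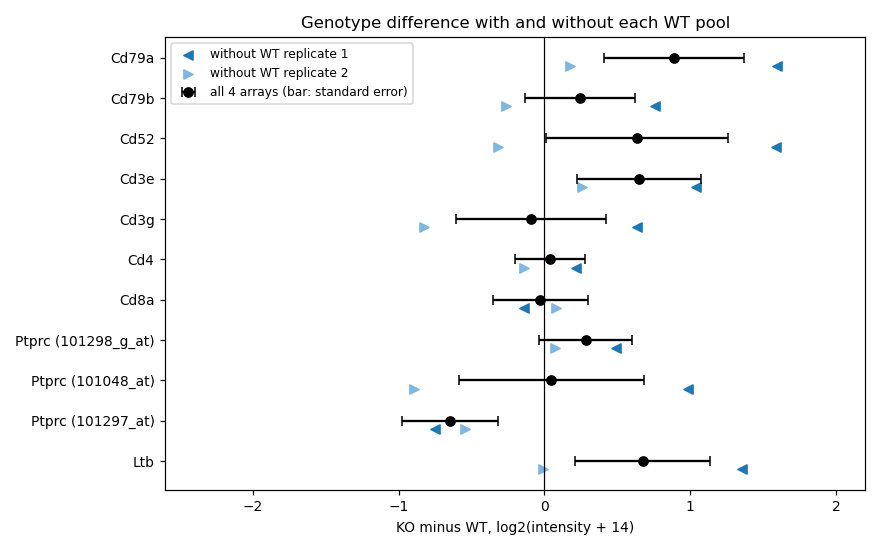
KO minus WT on the log2(intensity + 14) scale for each probe set, with all 4 arrays (black points; bars are standard errors of the fit) and with WT pool 1 or WT pool 2 left out (blue triangles). Leaving out WT pool 1 moved the member median from 0.25 to 0.76, and leaving out WT pool 2 moved it to -0.14.

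The spread between pools of a genotype was wider than for most probe sets. WT pool 1 was above WT pool 2 for 9 of 11 members, with a median log2 difference of 1.02, where the median over all probe sets was -0.01. The gap was at least 2-fold on this scale for 6 of the 11 (Cd79a, Cd79b, Cd52, Cd3g, Ltb and 101048_at of Ptprc), against 3.71% of all probe sets. Dim probe sets scatter more, so the same count was taken above the median level of the table: 4 of the 6 members there passed 2-fold, against 1.82% of 6211 probe sets. Cd52 and 101048_at of Ptprc, at 1.90 and 1.88, stood at the 99.6th percentile of all probe sets, and Cd3g, Cd79a, Ltb and Cd79b stood at percentiles of 98.9, 98.7, 98.5 and 96.5. WT pool 2 was the lowest of the 4 arrays for 9 of 11 members, against 24.1% of all probe sets. These counts describe 1 array on each side and carry no test.

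The KO pools differed less. KO pool 2 was above KO pool 1 for 9 of 11 members, with a median log2 difference of 0.49 beside 0.04 for all probe sets. None of the 11 reached 2-fold on the log2(intensity + 14) scale, against 4.07% of all probe sets, and the widest gap was 0.95 for Cd52. With a pseudocount of 1, 1 member did, and 101297_at of Ptprc had a signal ratio of 7.09 between dim values (13 over 1.83). The gap was 0.77 for the dimmest Ptprc probe set, 0.67 for Cd79a, 0.60 for Cd3e, 0.57 for Ltb and 0.49 for Cd79b. Cd3g, which had one of the wider gaps between the WT pools, differed by 0.11 between the KO pools, and Cd4 by -0.13.

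**Figure D3:**
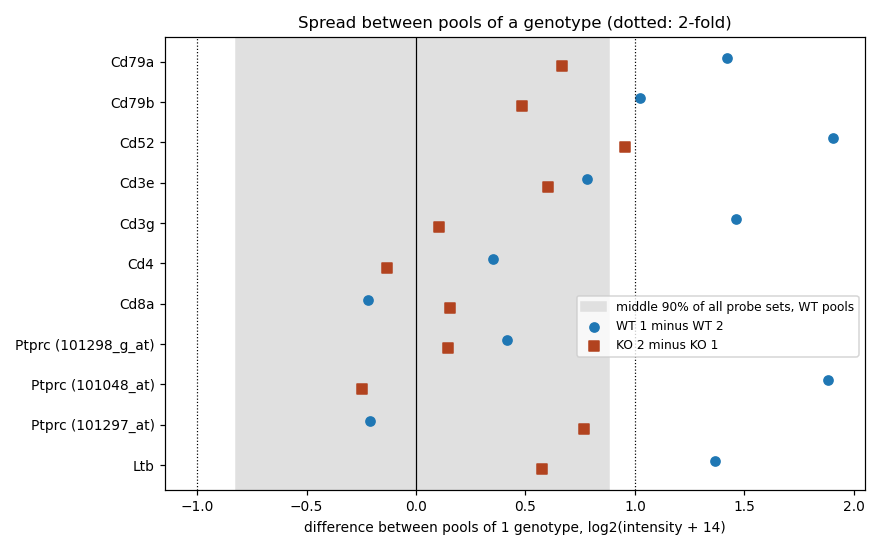
Difference between the 2 pools of each genotype on the log2(intensity + 14) scale for each probe set: WT pool 1 minus WT pool 2 (blue circles) and KO pool 2 minus KO pool 1 (red squares); the grey band holds the middle 90% of all probe sets for the WT pools, and dotted lines mark 2-fold. Of the members, 6 lay past 2-fold between the WT pools and none between the KO pools.

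Other genes of the same cells were read from lists of B-cell and T-cell genes, 1 probe set per gene. Of 21 measured B-cell genes, 14 were higher and 7 lower in KO on average (median log2 difference 0.28), 3 had both KO arrays above both WT arrays (17.0% of all probe sets) and none had them below (17.6% of all). None was called over all probe sets. WT pool 1 was above WT pool 2 for 15 of the 21 (median 0.55), at least 2-fold for 4, and WT pool 2 was the lowest array for 9. Without WT pool 2, 9 of the 21 were higher in KO.

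Of the 6 brightest of these genes, 3 had WT pool 2 as their lowest array. Cd37, a tetraspanin of mature B cells, read 152 and 49.5 in the WT pools and 85.5 and 169 in the KO pools. Pax5, the transcription factor that fixes B-cell identity, read 113 and 54.5 in the WT pools and 76.1 and 129 in the KO pools. Ms4a1 (CD20) read 139 and 76.1 in the WT pools and 144 and 149.8 in the KO pools, with a log2 difference of 0.45 ± 0.30. In the other 3 another array was lowest. Cd24a and the repressor Bcl6, neither of them confined to B cells, were lowest in a KO pool. Spib, a B-cell transcription factor, was highest in WT pool 2, at 137.

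Fewer T-cell genes were higher in KO. Of 24 measured, 9 were higher and 15 lower in KO (median -0.07), 3 had both KO arrays above the WT arrays (17.0% of all probe sets) and 6 both below (17.6% of all), and none was called. Only 5 of the 24 had a mean above the median level of the table, beside 8 of the 21 B-cell genes, so most of these counts come from dim probe sets. WT pool 1 was above WT pool 2 for 17 of the 24 T-cell genes (median 0.36) and at least 2-fold for 5. Thy1, a surface glycoprotein of T cells that nerve and fibroblasts also carry, read 340.2 and 189.8 in the WT pools and 290.0 and 226 in the KO pools. Cd27, a costimulatory receptor, read 157 and 93.8 in the WT pools and 86.3 and 59.3 in the KO pools, and the recombinase Rag1 read 111 and 84.0 in the WT pools and 34.1 and 34.3 in the KO pools (log2 difference -1.20 ± 0.32), each with both KO pools below both WT pools. The mean of the Rag1 probe set over the 4 arrays, 65.9, lay below the median level of the table, 68.7. Whether it read Rag1 or unspecific signal is not known here. Lat, Lef1 and Il2rb had log2 differences of 0.40 ± 0.30, -0.58 ± 0.44 and 0.11 ± 0.28. Without WT pool 1 the T-cell count turned, to 14 of 24 higher in KO.

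Signalling genes of the B-cell or T-cell receptor, some used by both, had a smaller median difference between the WT pools than the members (0.23 against 1.02). Several of these genes, Prkcq and Csk among them, are not confined to lymphocytes, so their signal in whole muscle need not come from lymphocytes. Of 20, 12 were higher in KO (median 0.11), 6 had both KO arrays above WT (17.0% of all probe sets) and 4 both below (17.6% of all), and none was called. WT pool 1 was above WT pool 2 for 14 of the 20 (median 0.23). Syk, the kinase that binds the B-cell receptor chains, read 184 and 151 in the WT pools and 172 and 288 in the KO pools, and Csk, the kinase that restrains Src-family kinases, read 172 and 164 in the WT pools and 182 and 293 in the KO pools. Prkcq and Vav1, also among the 4 brightest, did not have WT pool 2 as the lowest array. Prkcq read 382 and 397 in the WT pools and 410 and 466 in the KO pools. Vav1 was highest in WT pool 2, at 147 and 180 in the WT pools and 149 and 139 in the KO pools. Without KO pool 1, 9 of 20 were higher in KO.

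Immunoglobulin and plasma-cell genes were also mostly lowest in WT pool 2. Of 9 measured, 8 were higher in KO (median 0.53) and WT pool 2 was lowest for 6, with WT pool 1 at least 2-fold above it for 4. Jchain, which joins secreted antibody units, read 304 and 90.0 in the WT pools and 203 and 273 in the KO pools. Ighm read 4455 and 2919 in the WT pools and 2470.2 and 3505 in the KO pools, with KO pool 1 as the lowest array. Iglc1 was highest in WT pool 2, at 85.4 and 162 in the WT pools and 157 and 119 in the KO pools. Ighg3 was lowest there, at 103 and 42.5 in the WT pools and 102 and 150 in the KO pools. Without WT pool 2, 5 of the 9 were higher in KO.

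Markers of other leukocytes varied with the members to different extents. Of 9 MHC class II genes, which B cells, dendritic cells and macrophages express, all 9 were higher in KO (median 0.39) and 8 were lowest in WT pool 2. Their invariant chain Cd74 read 2231 and 804 in the WT pools and 1668 and 2279.7 in the KO pools, and the summed level of the list was 4852 and 2116 in the WT pools and 3659.9 and 5077 in the KO pools. Without WT pool 2, only 3 of the 9 were higher in KO. Of 18 genes shared by leukocytes, 12 were higher in KO (median 0.26) and 12 were lowest in WT pool 2, and 4 were higher without that pool. Laptm5, a lysosomal protein of blood cells, read 369.6 and 138 in the WT pools and 240.3 and 305 in the KO pools, and Lsp1 went otherwise, at 452 and 454 in the WT pools and 317 and 324 in the KO pools.

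Macrophage and neutrophil markers, read as 1 list, had a narrower median gap between the WT pools. The list mixes 2 cell types, so its median need not hold for macrophages alone. Among its 4 brightest genes, C1qc read 501 and 311 in the WT pools and 317 and 408 in the KO pools. WT pool 1 minus WT pool 2 was 0.66 for C1qc, -0.22 for Csf1r, 0.20 for C1qb and 0.25 for Lyz2. WT pool 2 was the lowest array for C1qc and C1qb. Of 21, 9 were higher in KO (median -0.05), or 13 without WT pool 1 and 12 without KO pool 1, and 8 were lowest in WT pool 2, with a median difference between the WT pools of 0.25 and summed levels of 3036 and 2396 in the WT pools and 2472 and 2932 in the KO pools. Of 12 genes of NK and cytotoxic cells, 5 were higher in KO (median -0.11), or 8 without KO pool 1, and 3 were lowest in WT pool 2. The chemokine Ccl5 read 113 and 13.7 in the WT pools and 98.3 and 120.1 in the KO pools, and the NK receptor Klrk1 read 79.6 and 99.5 in the WT pools and 25.6 and 7.49 in the KO pools. Only 1 of these 12 genes had a mean above the median level of the table.

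The measured genes of the surroundings in which lymphocytes gather were mostly not lower in WT pool 2. Of 13 genes listed for lymph node stroma and high endothelial venules, 8 were measured, among them Lta, a lymphotoxin subunit that lymphocytes themselves make. WT pool 1 was above WT pool 2 for 2 of the 8, Cxcl13 and Glycam1 (list median -0.02). Summed levels were 849.6 and 865 in the WT pools and 821 and 845 in the KO pools. Bright probe sets weigh most in this sum, as in every list sum here, and Cd34 was the brightest. Glycam1 was dim, at 15.8 and 12.3 in the WT pools and 16.7 and 19.0 in the KO pools, with WT pool 2 lowest and KO pool 2 highest. Only 3 of the 8 had a mean above the median level of the table. Ccl19, Ccl21a and Ccl21b were among the unmatched genes, so the list covers lymph node tissue only in part. The 6 brightest were read singly. Cd34, which endothelium and progenitor cells carry, read 398 and 413 in the WT pools and 423 and 363 in the KO pools. Ltbr, the receptor that Ltb acts on, read 155 and 156 in the WT pools and 109 and 181 in the KO pools. Tnfrsf11a (RANK), the receptor of a lymph node organiser cytokine, read 70.5 and 87.2 in the WT pools and 51.4 and 42.7 in the KO pools. Lta and Fut7 had WT pool 1 minus WT pool 2 differences of -0.03 and -0.0094. Cxcl13, the chemokine of B-cell follicles, read 54.4 and 30.2 in the WT pools and 54.0 and 59.4 in the KO pools, and was the one of these 6 that was lower in WT pool 2 than in WT pool 1. Of 12 adipocyte genes, 11 were higher in WT pool 1 than in WT pool 2 (median 0.46), with summed levels of 17659.8 and 13636 in the WT pools and 14313 and 12221 in the KO pools. Adipoq, the fat-cell hormone adiponectin, read 2062 and 1213 in the WT pools and 1777 and 1480.1 in the KO pools. The part of fat in the spread of the lymphocyte markers was not tested.

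Red-cell and platelet genes had no common direction between the WT pools, with WT pool 1 above WT pool 2 for 5 of 10 and a median of 0.00. The size of their gap, whatever its sign, had a median of 0.226, beside 0.243 for all probe sets. The brightest of them, Hba-a1, read 6645 and 5359 in the WT pools and 8683 and 7747 in the KO pools. WT pool 1 minus WT pool 2 was 0.31 for Hba-a1, 0.04 for Ank1, -0.14 for Bpgm and -0.01 for Car2, the 4 brightest. Only 5 of the 10 had a mean above the median level of the table. The part of blood in the spread of the lymphocyte markers was not tested. For the 14 muscle fibre genes, WT pool 1 was above for 7, and the median size of the gap was 0.0914. The organs that marked single arrays lay differently from the members. Liver genes were higher in WT pool 2 than in WT pool 1 in 10 of 14 cases (median of WT pool 1 minus WT pool 2, -0.82), with albumin (Alb) at 230.0 and 1016 in the WT pools and 78.7 and 95.2 in the KO pools. Summed liver signal was 3918 and 3689 in the WT pools and 2189.7 and 2176 in the KO pools. The brightest genes in this sum were Cyp2e1 (1484 and 563 in the WT pools) and Hp (1505 and 934). Both were higher in WT pool 1, unlike most of the list, so the sum does not show the direction of most liver genes. Exocrine pancreas genes differed by a median of 0.03 between the WT pools and were lower in KO pool 2 than in KO pool 1 in 10 of 10 cases, whereas 9 of 11 members were higher there.

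**Figure D4:**
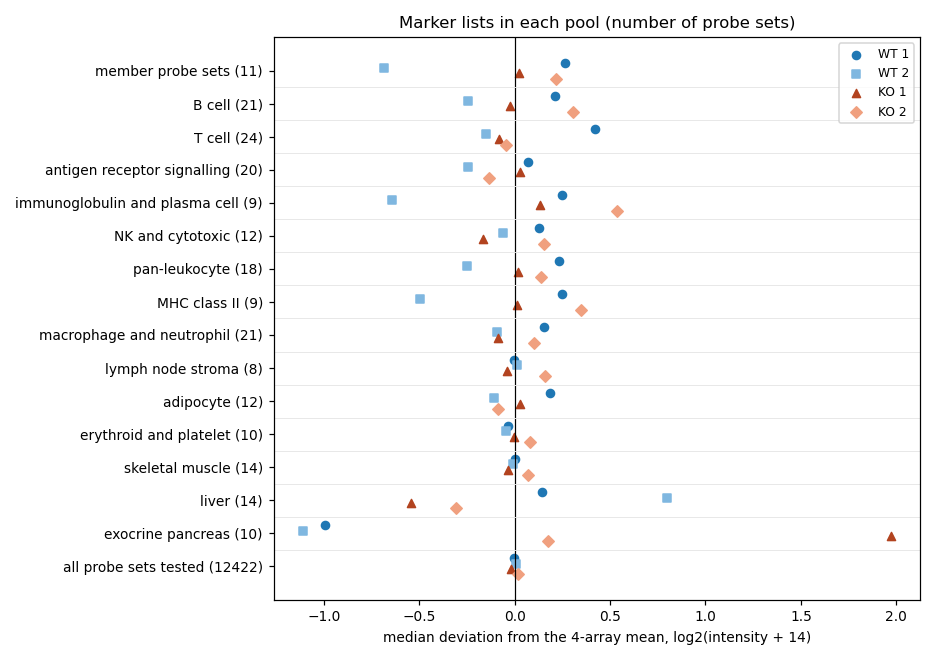
Median deviation of each gene list from its 4-array mean, on the log2(intensity + 14) scale, in WT pools 1 and 2 (blue) and KO pools 1 and 2 (red); the number of probe sets is in brackets. The 11 member probe sets are all those of the 9 genes, where the other lists have 1 per gene. They lay at 0.27, -0.68, 0.02 and 0.21 in WT pools 1 and 2 and KO pools 1 and 2. WT pool 2 was also lowest for the immunoglobulin (-0.64), MHC class II (-0.50), B-cell, T-cell, receptor signalling and pan-leukocyte lists. The same held for the macrophage and neutrophil (-0.09), adipocyte (-0.11), red-cell and platelet (-0.05) and exocrine pancreas lists (-1.11, beside -0.99 in WT pool 1). KO pool 1 was lowest for the NK, lymph node, muscle and liver lists.

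The genes most like the members were sought by the distance between each probe set's 4 centred log2 values and the members' median profile, among 5610 other named probe sets above the median level. The 10 nearest were Vcam1, Gbp2, Cyth2, Shisa5, Man2b1, Psg17, Cst3, Itgb2l, Socs2 and Itgb7, at distances of 0.13 to 0.20, where a flat profile lies at 0.77 and the median candidate at 0.84. Vcam1, the endothelial adhesion molecule that binds leukocyte integrins, read 99.7 and 43.8 in the WT pools and 85.1 and 89.7 in the KO pools. Itgb7, an integrin beta chain of lymphocytes, read 306 and 166 in the WT pools and 255 and 340.1 in the KO pools. The members themselves lay at 0.25 (Cd79b) to 1.34 (101297_at of Ptprc) from their median. With 4 arrays many profiles come close without relation, so the likeness is a description.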

How the data were processed

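Per the labels' protocols, biotin-labelled RNA of each pool was hybridised to 1 array. The authors deposited signal intensities on a linear scale, 1 value per array for every probe set. The sources used here do not say how probes were summarised or background was removed, and detection calls were not used here. All 4 arrays had the same trimmed mean (200.2), so no further scaling was applied. Groups were read from titles, since genotype and tissue are swapped in the label fields.

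Of 12488 probe sets, 66 controls were left out and 12422 tested with no filter. Genes were named from the platform annotation (10833 probe sets with 1 symbol, 396 with several, 1193 with none), updated through gene identifiers of GRCm38.p6 (10817 found). Values were taken as log2(intensity + 14), which understates changes of dim probe sets, and KO was compared with WT in limma 3.58.1 (R 4.3.3; lmFit, eBayes with trend, Benjamini-Hochberg, threshold 0.05, two-sided). The smallest adjusted p was 0.803. An exact test on 2 against 2 arrays cannot go below 0.333. P-values weigh the difference between genotypes against the spread between pools, as moderated by the fit over all probe sets. They do not reflect the spread between single mice. The fit was tested on simulated data. The number of arrays limits the precision.

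Members and 14 lists (258 genes, 201 measured) were chosen with earlier results of these data known. Genes named are all members, genes from the 4 (6 for B-cell, T-cell and lymph node lists) brightest of each list, the 10 nearest profiles and Crhr2. Glycam1 and the unmatched Ccl19, Ccl21a and Ccl21b were named outside this rule. Alternatives were 2 other pseudocounts (56 and 1), quantile normalization, a level filter, 1 probe set per gene, no trend, a replicate block and each array left out.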

Additional observations from a re-analysis of the deposited data

How the results depend on the processing

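The count of 0 called probe sets held under every alternative run (limma, adjusted p), with 350 to 831 probe sets at an unadjusted p under 0.05. The members' median KO minus WT of 0.25 ranged from -0.14 to 0.76 with 1 array left out and from 0.18 to 0.46 otherwise. The median between the WT pools (1.02) ranged from 0.79 to 1.19, and that of KO pool 1 minus KO pool 2 (-0.49) from -0.53 to -0.25. With 1 array left out, the range was -0.27 to 0.76 for Cd79b, -0.32 to 1.59 for Cd52, -0.82 to 0.64 for Cd3g, -0.14 to 0.21 for Cd4, -0.14 to 0.081 for Cd8a, -0.89 to 0.99 for 101048_at of Ptprc and -0.0083 to 1.36 for Ltb, and 101048_at was -0.048 with a pseudocount of 56. The cause was not tested. In these fits the lone array of a genotype is assumed to vary like the other genotype's. The number of members at least 2-fold higher in WT pool 1 than in WT pool 2 was 6, and 4 with a pseudocount of 56, 7 with 1 and 5 after quantile normalization, beside 0.716%, 8.5% and 3.82% of all probe sets; the list counts without single arrays and these counts were added after the values were seen. WT pool 2 was lowest for 9 of 11 members under each of these scalings. With the replicate number as a block, 8 of 11 members were higher in KO (median 0.25) and 0 probe sets were called. Deviations of same-numbered pools correlated at 0.0034 over probe sets, so no pairing by number was seen over the table as a whole. This is a single correlation over all probe sets and cannot exclude a pairing that touched part of the genes.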
